A study of Sus scrofa with 36 samples.

Results

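Pig induced pluripotent stem cells (iPSCs) sampled 1 day into mesendoderm differentiation were compared with the same line before differentiation. The comparison was defined by the library labels alone and used 6 of the 36 RNA-seq libraries of the series, 3 of mesendoderm on day 1 and 3 of iPSCs on day 0. Both groups came from one clonal line, clone 8 of pig (Sus scrofa) iPSCs. The day 1 cells had been directed to a stage that the label calls primitive streak or mesendoderm in a medium named E8A100ch3, whose components were not given in the sources used here. The day 0 cells were undifferentiated, and the feeder cells (MEF) on which they had been kept had been removed. The series also holds later stages of clone 8, 3 other iPSC clones and fibroblasts. A single clone limits how far the values speak for other pig lines, and the labels do not say whether the 3 libraries of each group are 3 cultures, so the p-values speak only for the scatter among these libraries, part of which may be technical.

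In the gastrulating embryo, epiblast cells move through the primitive streak, lose their epithelial junctions and become mesoderm or endoderm. Nodal, Wnt, FGF and BMP signals set up the streak, and T (brachyury, TBXT), EOMES and MIXL1 encode transcription factors that mark the cells passing through it. Epiblast and iPSCs share a network of pluripotency factors, of which POU5F1 (OCT4), SOX2 and NANOG are the best known.

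Levels are given as TPM, a unit that corrects for gene length and library size, and differences as log2 fold changes ± SE of day 1 minus day 0. Adjusted p-values are those of the edgeR quasi-likelihood test on estimated counts over 13059 genes, fitted on the 12 libraries of days 0 to 3, with Benjamini-Hochberg adjustment and a threshold of 0.05. Of these genes 5186 (39.7%) passed, 2591 higher (19.8%) and 2595 lower (19.9%) on day 1, and the median change of all genes was 0.01. Among genes changed at least 2-fold (20.2%), 815 were higher and 1822 lower. Total estimated counts were 6725864 to 8115007 in mesendoderm libraries and 8152284 to 8604970 in iPSC libraries. The split depended on the scaling. Upper quartile scaling moved the median of all genes to -0.11 and gave 1844 higher and 2987 lower, and limma on log2(TPM + 1) moved it to -0.20 and gave 1387 and 3337. In 48.8% of genes tested the TPM ranges of the 2 groups did not overlap, so groups that lie apart are common by themselves. The counts of each list below, and each statement that groups did not overlap, are to be read against these shares of all genes.

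Mesendoderm replicate 1 stood apart from the other libraries of its group. Its counts differed from those of replicates 2 and 3 by a chi-square per degree of freedom of 25.9 and 40.1, against 5.97 between replicates 2 and 3 and 3.43 to 7.33 between iPSC libraries. The deviation followed the length of genes. With genes in 5 groups of equal size by length, the median deviation of replicate 1 from its group mean ran from -0.23 on the log2 scale in the shortest genes to 0.25 in the longest. The difference between the groups followed length as well, with a median log2 fold change of 0.15 in the shortest genes and -0.15 in the longest. Of the shortest genes 575 were higher and 340 lower on day 1, and of the longest 449 were higher and 673 lower. A fit with a length offset, chosen after seeing the data, gave 3128 higher and 2594 lower genes and a median of 0.05. Without mesendoderm replicate 1, 3205 genes were higher and 3240 lower, and each list below is also given without it.

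**Figure D1:**
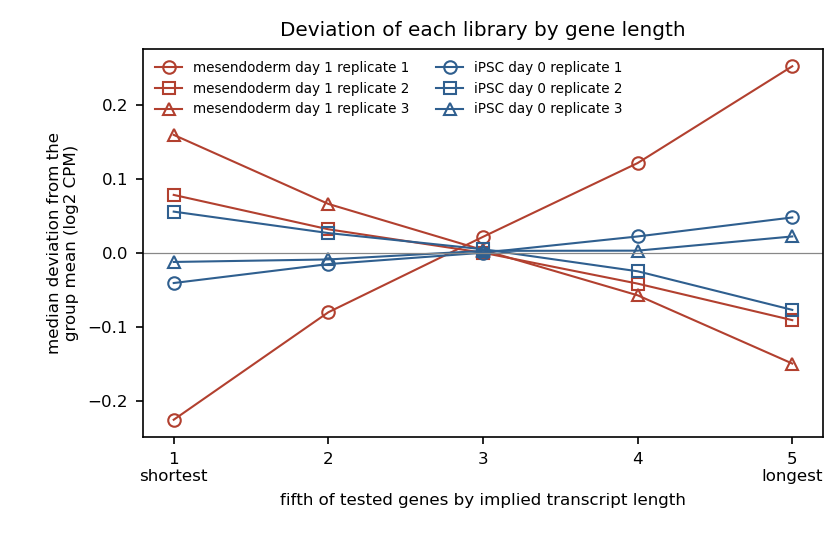
Median deviation of each library from the mean of its group (log2 CPM, vertical axis) in 5 equal groups of tested genes ordered by implied transcript length (horizontal axis). Red lines are mesendoderm day 1 libraries and blue lines iPSC day 0 libraries. Mesendoderm replicate 1 runs from -0.23 in the shortest genes to 0.25 in the longest, while iPSC libraries lie between -0.08 and 0.06.

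To check the label of the day 1 cells, the 3 marker genes of mesendoderm were read first. T stood at 417, 274 and 230 TPM in mesendoderm libraries and at 12.1, 8.29 and 10.6 TPM in iPSC libraries. MIXL1 stood at 195, 135 and 117 TPM in mesendoderm libraries and at 0.36, 0 and 0.18 TPM in iPSC libraries. EOMES stood at 483, 296 and 287 TPM in mesendoderm libraries and at 13.9, 8.03 and 11.9 TPM in iPSC libraries. All 3 genes were high in each mesendoderm library, with the highest level in replicate 1, and the groups did not overlap. The log2 fold change was 5.11 ± 0.23 for T (adjusted p = 4.69e-11) and 5.19 ± 0.20 for EOMES (adjusted p = 9.67e-12). MIXL1 rose by 9.69 ± 0.41 (adjusted p = 3.33e-11), but rests on 3 counts on day 0, which gives a log2 ratio of counts of 9.92 with a 95% counting interval of 8.37 to 12.19. On Sscrofa11.1, T lies on chromosome 1 (2717165 to 2725561), MIXL1 on chromosome 10 (14102273 to 14105544) and EOMES on chromosome 13 (14209590 to 14216184). None of the other 33 libraries of the series reached the mesendoderm levels, with maxima of 72.7 TPM for T and 16.6 TPM for MIXL1 on day 2 and 49.2 TPM for EOMES in a library labelled pNPC. In bulk RNA a larger share of expressing cells and more RNA per cell cannot be told apart.

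Most other streak factors rose too. Of 15 streak and mesendoderm transcription factor genes 14 were tested, 13 rose and 1 fell, with a median log2 fold change of 3.69, and the counts were 13 and 1 without mesendoderm replicate 1. GSC, the goosecoid factor of the anterior streak, stood at 87.7, 48.8 and 67.0 TPM in mesendoderm and at 9.08, 9.92 and 4.62 TPM in iPSCs (3.32 ± 0.30, adjusted p = 1.68e-07). LHX1, a LIM homeobox factor of the same region, stood at 187, 117 and 89.2 TPM in mesendoderm and at 13.2, 6.87 and 9.45 TPM in iPSCs (3.93 ± 0.27, adjusted p = 5.72e-09). The 2 genes separated the groups without overlap. MESP1, a factor of the first mesoderm to leave the streak, reached 3.37 to 9.93 TPM in mesendoderm against 0.1 to 0.32 TPM in iPSCs (5.37 ± 0.48). EVX1, which marks the posterior streak in the mouse, was uneven among replicates, at 19.7, 11.4 and 3.01 TPM in mesendoderm, and had 2 counts in all in iPSCs. SP5, a Wnt-responsive zinc finger factor, rose by 3.45 ± 0.35. FOXH1, the DNA-binding partner of SMAD2 and SMAD3 in Nodal signalling, was the member that fell (-1.79 ± 0.24, adjusted p = 1.70e-05), at 17.9, 8.86 and 8.06 TPM in mesendoderm and 50.8, 41.8 and 44.4 TPM in iPSCs. NKX1-2 had too few counts to be tested.

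**Figure D2:**
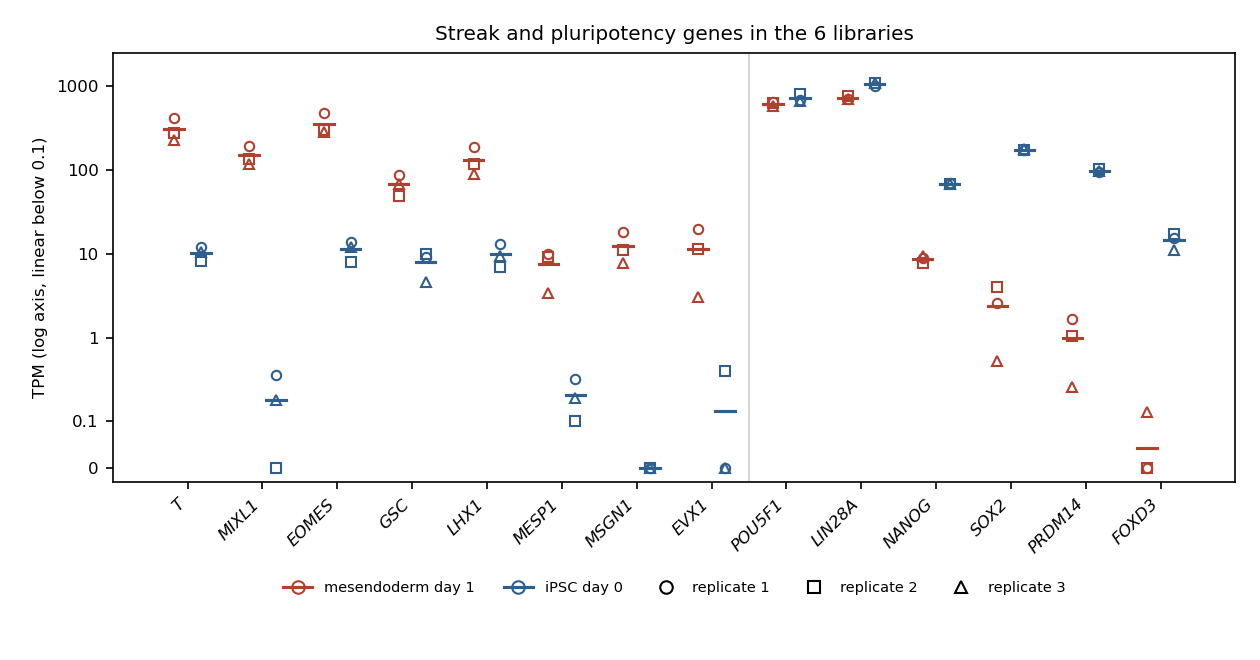
TPM (log axis, linear below 0.1) of 8 streak genes, left of the grey line, and 6 pluripotency genes, right of it, in each library. For each gene mesendoderm day 1 (red) stands left of iPSC day 0 (blue), symbols give the replicate and bars the mean. The streak genes are higher in every mesendoderm library, SOX2, NANOG, PRDM14 and FOXD3 are lower in every one, and POU5F1 stays at 573 TPM or above.

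Members of the pluripotency network differed in how they changed. SOX2 stood at 2.56, 4.03 and 0.53 TPM in mesendoderm libraries and at 175, 171 and 176 TPM in iPSC libraries. NANOG stood at 8.93, 7.85 and 9.45 TPM in mesendoderm libraries and at 69.3, 68.8 and 68.4 TPM in iPSC libraries. Neither gene overlapped between the groups, and SOX2 fell by 5.99 ± 0.33 (adjusted p = 4.53e-10) and NANOG by 2.73 ± 0.28 (adjusted p = 8.54e-07). POU5F1 was different. It stood at 638, 638 and 573 TPM in mesendoderm libraries and at 689, 797 and 666 TPM in iPSC libraries, a log2 fold change of 0.02 ± 0.14 (adjusted p = 0.938). The TPM ranges of POU5F1 did not overlap (48.8% of tested genes did not), and its change was -0.22 by limma on log2(TPM + 1), which did not pass either (adjusted p = 0.139). Of 16 core pluripotency genes 14 were tested, of which 1 rose, 4 fell and 9 did not pass, with a median of -0.58. The number that fell was 7 with upper quartile scaling and 8 by limma on log2(TPM + 1). Without mesendoderm replicate 1 the counts were 1 and 6, and 2 rose without mesendoderm replicate 3. FOXD3, a forkhead repressor, had 1 count on day 1 and 345 on day 0, at 11.0 to 17.3 TPM in iPSCs. DNMT3B, the de novo DNA methyltransferase of the epiblast, stood at 154, 102 and 89.4 TPM in mesendoderm and 1723, 1512 and 1567 TPM in iPSCs (-3.61 ± 0.17, adjusted p = 6.93e-11). The gene that rose was TDGF1, the co-receptor of Nodal also called Cripto, with 24.2, 31.5 and 34.2 TPM in mesendoderm and 12.5, 8.62 and 8.87 TPM in iPSCs (1.85 ± 0.31). SALL4 (0.47 ± 0.26, adjusted p = 0.158) and LIN28B (-0.27 ± 0.14, adjusted p = 0.147) did not pass, but SALL4 was higher with the length offset (0.57) and without mesendoderm replicate 3 (0.71), and LIN28B lower with upper quartile scaling (-0.38) and by limma on log2(TPM + 1) (-0.55). LIN28A, an RNA-binding protein of stem cells, did not pass either (-0.31 ± 0.16, adjusted p = 0.128), at 700 to 769 TPM in mesendoderm against 998 to 1105 TPM in iPSCs. It was lower by limma on log2(TPM + 1) (-0.56) and by upper quartile scaling (-0.43). DPPA4 was at 0 in every mesendoderm library and at 2.05 to 2.50 TPM in iPSCs, and was too low to be tested.

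Genes used to tell naive from primed pluripotency moved in both directions. PRDM14, a repressor that guards the naive state in the mouse, had 1.66, 1.05 and 0.26 TPM in mesendoderm and 94.9, 103 and 95.9 TPM in iPSCs (-6.41 ± 0.33, adjusted p = 2.47e-10), with no overlap. KLF4, one of the reprogramming factors, fell by 3.96 ± 0.43, while TBX3 rose by 4.397 ± 0.33 and FGF4 by 3.67 ± 0.45. Of 12 naive-associated genes 8 were tested, 3 rose and 4 fell (median -0.31), with 3 and 3 without mesendoderm replicate 1, and 2 fell without iPSC replicate 1. Of 14 primed-associated genes 12 were tested, 3 rose and 7 fell (median -0.79), with 2 and 7 without mesendoderm replicate 1 and 1 and 7 by limma on log2(TPM + 1). OTX2, a homeobox factor of anterior epiblast, stood at 120, 136 and 138 TPM in mesendoderm and 140, 125 and 150 TPM in iPSCs, overlapped and did not pass (0.18 ± 0.18, adjusted p = 0.456). SALL2 (-3.03 ± 0.20) and POU3F1 (-3.87 ± 0.64), a POU factor of early neural fate, fell, and ZIC2 rose by 1.53 ± 0.19. CD24 was not analysed here. DNMT3A, the other de novo methyltransferase, fell by 1.07 ± 0.15. Of 10 DNA methylation genes 9 were tested, 1 rose and 2 fell, with 2 and 6 without mesendoderm replicate 1, and 2 rose without mesendoderm replicate 2. By limma on log2(TPM + 1) and with the length offset 4 fell. In one fit over all 21 clone 8 libraries the calls of POU3F1 and ZIC2 were lost.

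Of the ectoderm genes, HESX1 and SIX3 fell and PAX7 rose. HESX1, a homeobox repressor of the anterior neural plate and pituitary, had 1.06, 1.44 and 2.48 TPM in mesendoderm and 144, 155 and 138 TPM in iPSCs (-6.18 ± 0.40, adjusted p = 2.94e-09). The groups did not overlap, and of the 11 groups of the series the day 0 iPSCs had the highest mean. SIX3, a forebrain homeobox factor, had 1 count on day 1 and 114 on day 0 (adjusted p = 2.66e-05). PAX7, a paired-box factor of neural crest and muscle, had 4.58, 1.75 and 1.76 TPM in mesendoderm and 0, 0 and 0.04 TPM in iPSCs. Its log2 ratio of counts was 7.79 (95% counting interval 5.29 to 13.10, adjusted p = 3.55e-06). Of 14 ectoderm genes 8 were tested, 1 rose and 4 fell (median -0.97), the same counts as without mesendoderm replicate 1. SOX1, PAX6, PAX3 and RAX were too low to be tested, at 1.35 TPM or less in every library of both groups. The call of SIX3 was lost in the fit over 21 libraries.

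**Figure D3:**
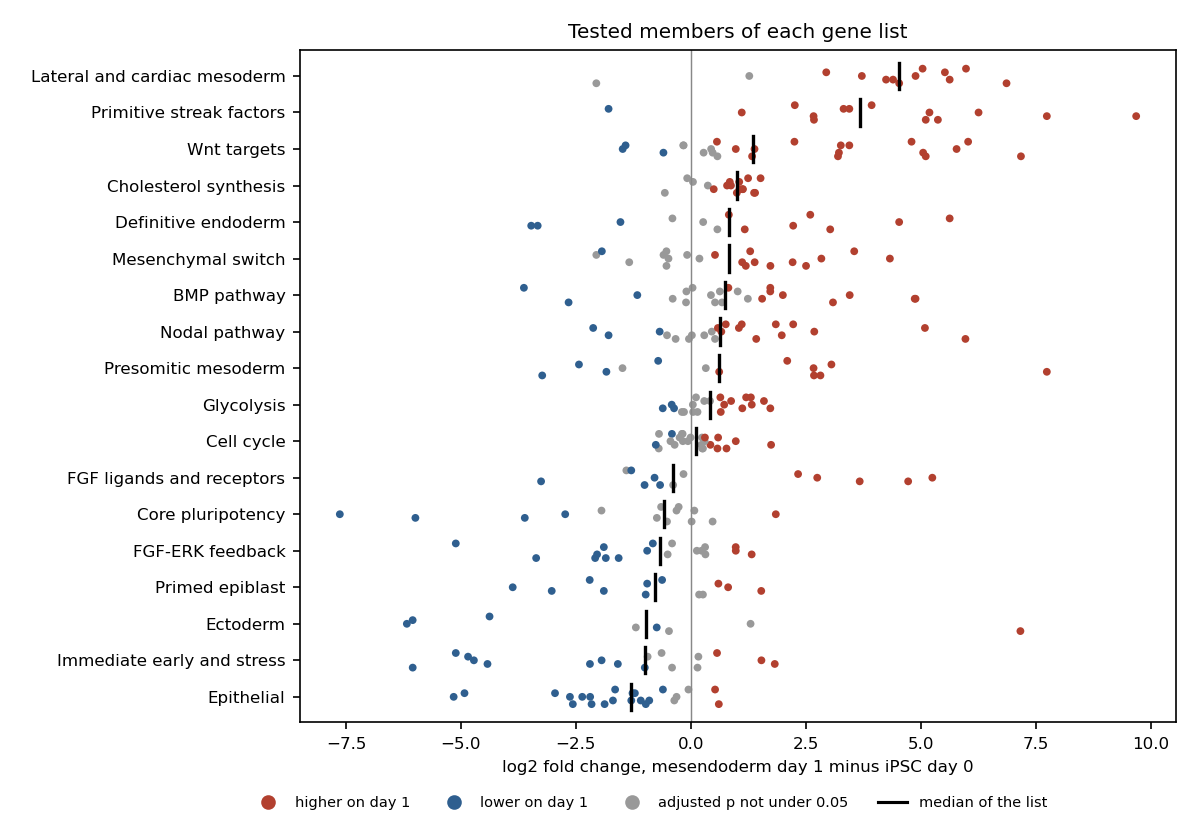
Log2 fold change of day 1 minus day 0 (horizontal axis) for every tested member of 18 gene lists. Each point is a gene, red where it was higher on day 1, blue where lower and grey where the adjusted p was not under 0.05, and black bars are list medians. Medians run from 4.53 for lateral and cardiac mesoderm to -1.30 for epithelial genes, and most lists hold genes of both directions.

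Nodal is a ligand of the TGF-beta family that acts through activin receptors and SMAD2 or SMAD3. NODAL itself stood at 11.0, 10.6 and 11.7 TPM in mesendoderm and at 0.3, 0.3 and 0 TPM in iPSCs, without overlap (5.97 ± 0.49, adjusted p = 6.77e-07). No other library of the series exceeded 2.22 TPM. With levels near 0 in iPSCs the size of the NODAL change is uncertain, at 3.34 to 6.39 in 16 alternative fits. The secreted inhibitors CER1 and FST rose with NODAL. CER1 was even among replicates, at 193, 196 and 189 TPM in mesendoderm and 49.9, 48.1 and 48.2 TPM in iPSCs (2.23 ± 0.14, adjusted p = 3.31e-09), and FST, a follistatin that binds activin, rose by 1.42 ± 0.14. Of the receptors, ACVR1B (-0.33 ± 0.22) and ACVR2A (0.29 ± 0.26) did not pass, and ACVR2B fell (-0.68 ± 0.20, adjusted p = 0.0126), a call lost when mesendoderm replicate 2 or 3 was left out. The transducers differed among themselves, since SMAD3 fell (-2.12 ± 0.30, adjusted p = 2.67e-05), to 0.75 to 2.87 TPM in mesendoderm against 6.89 to 9.47 TPM in iPSCs, while SMAD2 (0.66 ± 0.13) and SMAD4 (0.76 ± 0.12) rose. The feedback genes SKIL (1.98 ± 0.20) and PMEPA1 (2.68 ± 0.32), both targets of SMAD signalling that restrain it, rose. Of 25 pathway genes 22 were tested, 12 rose and 3 fell (median 0.63), with 12 and 5 without mesendoderm replicate 1, and CFC1 was not analysed here. In the fit over 21 libraries the calls of ACVR2B, FST, SMAD2 and PMEPA1 were lost.

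Of the Wnt ligand genes WNT3, WNT3A, WNT5A, WNT5B and WNT11 rose. WNT3, needed for the streak to form in the mouse, stood at 12.3, 7.55 and 6.94 TPM in mesendoderm and 0.6, 0.99 and 0.75 TPM in iPSCs (3.71 ± 0.37, adjusted p = 5.76e-07). WNT5A, a ligand that drives cell movement, stood at 38.0, 26.01 and 23.3 TPM in mesendoderm and 0.77, 0.9 and 1.17 TPM in iPSCs (5.12 ± 0.24, adjusted p = 6.93e-11). Both were higher in every mesendoderm library. The change was 3.10 ± 0.54 for WNT3A and 1.85 ± 0.31 for WNT5B. WNT11 stood at 4.99 to 10.9 TPM in mesendoderm and 0.13 TPM in each iPSC library, and WNT8A did not pass (0.35 ± 0.42). WLS, the carrier that brings Wnt proteins to the cell surface, rose by 1.34 ± 0.13, whereas PORCN, which attaches their lipid, fell by 1.62 ± 0.31.

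Frizzled receptor genes went both ways. FZD5 stood at 1.78, 0.84 and 1.1 TPM in mesendoderm and 52.2, 36.7 and 50.05 TPM in iPSCs (-4.99 ± 0.34, adjusted p = 8.81e-09), and FZD6 fell by 3.36 ± 0.28. FZD7 stood at 154, 88.6 and 77.8 TPM in mesendoderm and 34.9, 32.8 and 31.5 TPM in iPSCs (1.89 ± 0.16, adjusted p = 7.92e-08), and FZD4 rose by 2.27 ± 0.20. None of these 4 overlapped between the groups, and FZD1, FZD2, FZD3 and FZD8 did not pass. The secreted antagonists split by family. The Frizzled-related decoys SFRP1 (-2.36 ± 0.19), SFRP2 (-2.20 ± 0.27), SFRP5 (-3.67 ± 0.69) and FRZB (-3.98 ± 0.28) fell. DKK1, which blocks the Wnt co-receptor LRP6, stood at 696, 824 and 952 TPM in mesendoderm and 12.6, 13.6 and 19.0 TPM in iPSCs (6.03 ± 0.28, adjusted p = 8.16e-11), and its relative DKK4 reached 13.3 to 14.4 TPM in mesendoderm with 2 counts in all in iPSCs. LRP6 itself did not pass (0.36 ± 0.14, adjusted p = 0.0584). Of 30 ligand, receptor and antagonist genes 27 were tested, 10 rose and 7 fell (median 0.35), with 10 and 9 without mesendoderm replicate 1. The calls of FZD7, SFRP2, WNT3A and PORCN were lost in the fit over 21 libraries.

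Targets and feedback genes of Wnt and beta-catenin rose in 15 and fell in 3 of 24 tested genes out of 25 (median 1.36), with 14 and 3 without mesendoderm replicate 1. T, SP5 and DKK1, described above, are among them. AXIN2, a scaffold of the complex that destroys beta-catenin, stood at 40.3, 18.9 and 16.5 TPM in mesendoderm and 4.0, 2.49 and 3.04 TPM in iPSCs (3.20 ± 0.31, adjusted p = 3.83e-07). LEF1, a nuclear partner of beta-catenin, stood at 76.3, 41.2 and 33.9 TPM in mesendoderm and 2.47, 1.05 and 1.27 TPM in iPSCs (5.05 ± 0.31, adjusted p = 1.54e-09). Neither overlapped between the groups. NKD1, an inhibitor of Dishevelled, rose by 4.80 ± 0.25 and LGR5, an R-spondin receptor, by 3.22 ± 0.49, whereas its relative LGR4 fell by 1.48 ± 0.19. The ubiquitin ligases RNF43 (0.44 ± 0.31) and ZNRF3 (-0.17 ± 0.25), which remove Frizzled receptors from the membrane, and NOTUM (0.47 ± 0.58) did not pass, nor did MYC (0.28 ± 0.25, adjusted p = 0.403).

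**Figure D4:**
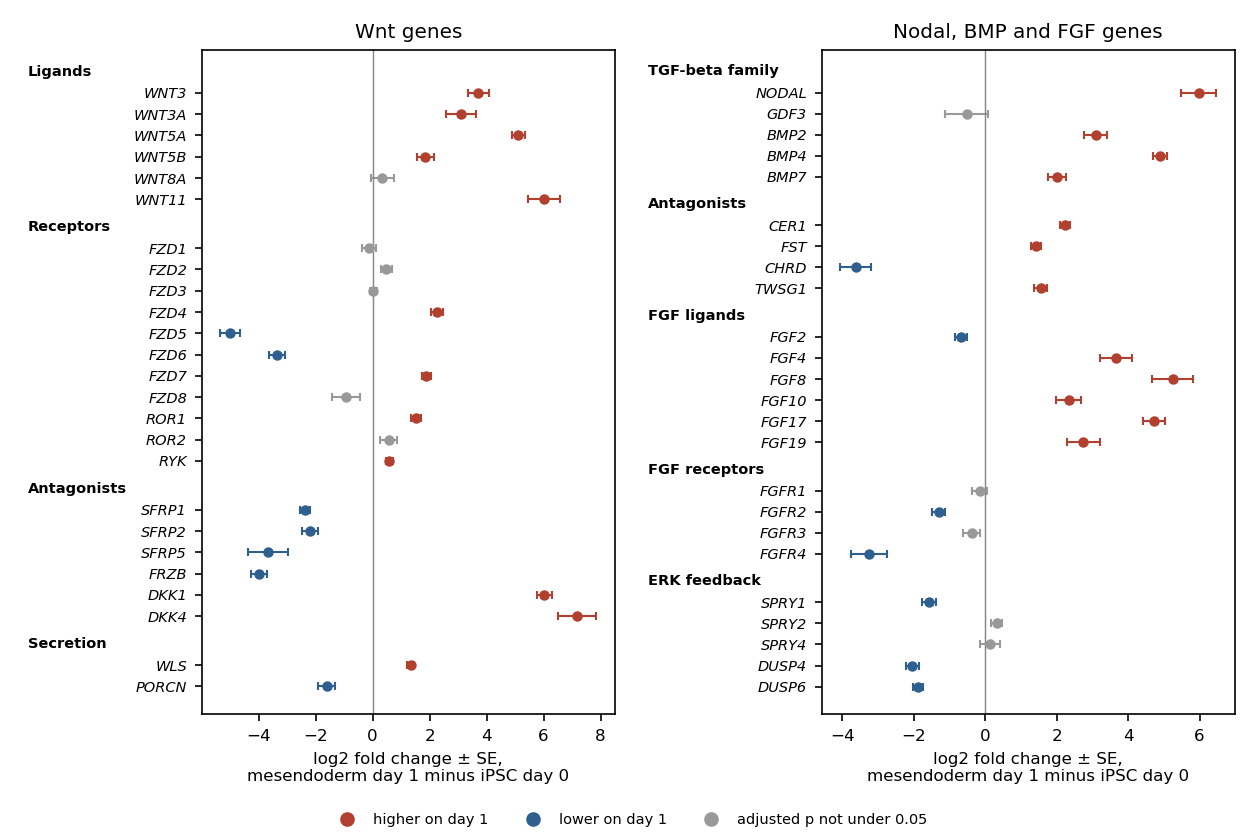
Log2 fold change ± SE of day 1 minus day 0 (horizontal axis) for Wnt genes (left) and for Nodal, BMP and FGF genes (right), grouped by role. Red points were higher on day 1, blue lower, and grey had an adjusted p not under 0.05. FZD5 at -4.99 and FZD7 at 1.89 lie on opposite sides of 0, as do FGF8 at 5.25 and FGFR4 at -3.26.

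Of the FGF genes, FGF4, FGF8 and FGF17 rose, and FGF2, FGFR2 and FGFR4 fell. FGF17 stood at 84.2, 64.9 and 60.0 TPM in mesendoderm and 4.38, 1.92 and 2.9 TPM in iPSCs (4.73 ± 0.30, adjusted p = 2.43e-09). FGF8, needed for cells to leave the streak in the mouse, stood at 13.7, 8.27 and 7.33 TPM in mesendoderm and 0.2, 0.2 and 0.4 TPM in iPSCs (5.25 ± 0.57, adjusted p = 1.54e-06). FGF4, at 52.8, 27.1 and 22.0 TPM in mesendoderm and 3.41, 3.78 and 1.74 TPM in iPSCs, also rose. These 3 ligands did not overlap between the groups. FGF2 fell by 0.67 ± 0.17. FGFR1, the main receptor by level in both groups at 38.1 to 106 TPM in mesendoderm and 72.8 to 90.8 TPM in iPSCs, overlapped and did not pass (-0.16 ± 0.21). FGFR2 (-1.30 ± 0.18) and FGFR4 (-3.26 ± 0.51) fell. Of 20 FGF and receptor genes 13 were tested, 5 rose and 5 fell (median -0.39). Without mesendoderm replicate 1, 5 rose and 8 fell, and without iPSC replicate 2, 3 fell. The call of FGF2 was lost in the fit over 21 libraries.

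Genes that ERK signalling induces, several of which feed back on it, went both ways. Of 18 genes, all tested, 3 rose and 9 fell (median -0.67), with 4 and 11 without mesendoderm replicate 1 and 1 and 4 in the fit over 21 libraries. The ERK phosphatase DUSP6 stood at 51.3, 49.4 and 34.5 TPM in mesendoderm and 197, 203 and 186 TPM in iPSCs (-1.89 ± 0.14, adjusted p = 1.59e-08), and DUSP4 fell by 2.04 ± 0.17. ETV1, an ETS factor downstream of FGF, fell by 1.85 ± 0.17 and SPRY1, a Sprouty inhibitor, by 1.57 ± 0.20. SPRY2 (0.32 ± 0.14, adjusted p = 0.0895) and SPRY4 (0.13 ± 0.28, adjusted p = 0.747) did not pass. EGR1, an immediate early gene, stood at 1.39, 0.6 and 0.78 TPM in mesendoderm and 41.4, 35.2 and 36.8 TPM in iPSCs (-5.11 ± 0.33, adjusted p = 3.00e-09), with no overlap. IL17RD, which encodes the inhibitor Sef, and PHLDA1 rose, by 0.98 ± 0.18 and 1.32 ± 0.14. In the fit over 21 libraries the calls of DUSP4, DUSP6, SPRY1, IL17RD and PHLDA1 were lost.

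EGR1 also belongs to the immediate early and stress genes, of which 3 rose and 9 fell among 17 tested (median -1.002), with 2 and 9 without mesendoderm replicate 1. EGR2, at 0.05, 0 and 0.13 TPM in mesendoderm and 12.3, 6.57 and 5.58 TPM in iPSCs, fell by 6.05 ± 0.58, ATF3 by 4.72 ± 0.28 and GADD45B by 4.85 ± 0.36. JUN fell by 1.94 ± 0.22, and FOS, at 31.8, 16.2 and 23.8 TPM in mesendoderm and 41.7, 34.9 and 34.6 TPM in iPSCs, did not pass (-0.41 ± 0.29). The ATF4 target ASNS, which makes asparagine, went the other way, with 712, 920 and 865 TPM in mesendoderm and 298, 281 and 264 TPM in iPSCs (1.82 ± 0.16, adjusted p = 8.77e-08). Other genes of the integrated stress response, DDIT3 (0.16 ± 0.40), TRIB3 (-0.64 ± 0.58) and CHAC1 (0.14 ± 0.39), did not pass.

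The ligand genes BMP2, BMP4 and BMP7 rose. BMP4, which induces posterior and extraembryonic mesoderm, stood at 276, 177 and 164 TPM in mesendoderm and 8.6, 7.02 and 10.2 TPM in iPSCs, without overlap (4.89 ± 0.19, adjusted p = 1.39e-11). The change was 3.09 ± 0.31 for BMP2 and 2.001 ± 0.25 for BMP7, and the receptor genes BMPR1A, BMPR1B and BMPR2 did not pass. CHRD, which encodes the BMP antagonist chordin, stood at 12.8, 4.13 and 3.58 TPM in mesendoderm and 149, 57.6 and 82.0 TPM in iPSCs (-3.63 ± 0.43, adjusted p = 1.89e-05). Response genes went both ways. MSX1 (4.87 ± 0.58), MSX2 (3.45 ± 0.22), ID2 (1.73 ± 0.23) and ID3 (0.82 ± 0.13) rose, whereas ID1 (-1.16 ± 0.21) and ID4 (-2.66 ± 0.18) fell. ID1 stood at 32.0, 32.8 and 30.2 TPM in mesendoderm and 98.4, 77.7 and 75.4 TPM in iPSCs. Of 24 BMP genes 22 were tested, 9 rose and 3 fell (median 0.75), the same counts as without mesendoderm replicate 1. In the fit over 21 libraries the calls of ID1, ID2, ID3 and MSX2 were lost.

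Genes of lateral and cardiac mesoderm had the highest median of the 28 lists, at 4.53. Of 14 genes 13 were tested, 11 rose and 0 fell, also without mesendoderm replicate 1. By DESeq2, with the replicate number as a block, by limma and without mesendoderm replicate 2, 11 rose and 1 fell. PDGFRA, a growth factor receptor of early mesoderm, stood at 95.6, 69.2 and 73.2 TPM in mesendoderm and 1.67, 1.34 and 1.36 TPM in iPSCs (5.98 ± 0.22, adjusted p = 6.88e-12). KDR, the VEGF receptor of the first vascular and cardiac precursors, stood at 162, 112 and 93.9 TPM in mesendoderm and 4.35, 2.14 and 2.73 TPM in iPSCs (5.53 ± 0.25, adjusted p = 6.93e-11). APLNR, the apelin receptor, stood at 393, 235 and 163 TPM in mesendoderm and 12.7, 6.14 and 8.6 TPM in iPSCs (5.04 ± 0.29). The groups were apart for each receptor. HAND1, a factor of heart and extraembryonic mesoderm, stood at 20.7, 14.2 and 13 TPM in mesendoderm and had 3 counts in all in iPSCs (log2 ratio of counts 7.09, 95% counting interval 5.53 to 9.37, adjusted p = 1.21e-08). ISL1 (1.27 ± 0.71, adjusted p = 0.169) and SNAI2 (-2.06 ± 0.85, adjusted p = 0.064) did not pass, and NKX2-5, a later cardiac factor, had too few counts to be tested.

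Genes of presomitic mesoderm, the tissue that forms somites, were mixed on day 1, with 7 higher and 4 lower of 13 tested out of 14 (median 0.62), and 6 and 3 without mesendoderm replicate 1. MSGN1, a mesogenin factor of this tissue, stood at 17.9, 10.9 and 7.79 TPM in mesendoderm and at 0 in every iPSC library, at least 5.12 log2 units higher against a floor of 3 counts over the group (adjusted p = 2.99e-06). TBX6, which acts beside it, stood at 10.3, 4.36 and 2.72 TPM in mesendoderm and 1.67, 0.23 and 1.06 TPM in iPSCs (2.68 ± 0.57). Genes of Notch signalling went both ways. The ligand genes DLL1 (3.06 ± 0.28) and DLL3 (2.10 ± 0.19) and the target HES7 (2.82 ± 0.81, adjusted p = 0.011, at 1.37 TPM or less in all 6 libraries, with overlapping groups) rose. The groups of LFNG, a modifier of Notch, overlapped as well, and its call (0.62 ± 0.21, adjusted p = 0.0252) was lost when mesendoderm replicate 1 or iPSC replicate 2 or 3 was left out and with upper quartile scaling. HES1, at 8.39, 5.26 and 2.12 TPM in mesendoderm and 39.4, 30.3 and 28.2 TPM in iPSCs (-2.43 ± 0.44), and NRARP (-3.23 ± 0.50) fell. CDX genes, which set trunk identity upstream of the HOX clusters, were the ones that rose among 16 HOX and CDX genes, 11 of them tested, and 3 also rose without mesendoderm replicate 1. CDX4 stood at 7.39, 6.55 and 7.34 TPM in mesendoderm and 1.48, 1.95 and 1.82 TPM in iPSCs (2.25 ± 0.28, adjusted p = 7.46e-06), CDX2 rose by 3.26 ± 0.70, and CDX1, at 0 in iPSCs, was at least 3.13 log2 units higher. HOXB1 was at 0.33 TPM or less in every library of both groups. In the fit over 21 libraries the calls of DLL1, HES7, LFNG and NRARP were lost, and those of HES7 and LFNG also by limma on TPM.

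Definitive endoderm genes also went both ways, with 7 higher and 3 lower of 13 tested out of 16 (median 0.83), and 6 and 3 without mesendoderm replicate 1. SOX17, the SOX factor that specifies endoderm, stood at 210, 130 and 114 TPM in mesendoderm and 27.9, 12.8 and 23.6 TPM in iPSCs (3.03 ± 0.24, adjusted p = 3.65e-08). GATA6, shared by endoderm and heart, stood at 170, 96.5 and 86.7 TPM in mesendoderm and 4.41, 1.34 and 2.41 TPM in iPSCs (5.63 ± 0.34, adjusted p = 4.05e-09). CXCR4, a chemokine receptor used to sort endoderm, stood at 239, 368 and 302 TPM in mesendoderm and 56.0, 59.6 and 63.9 TPM in iPSCs (2.60 ± 0.22). All 3 were higher in each mesendoderm library. FOXA2, which endoderm and node need, overlapped between the groups at 14.5, 5.62 and 4.85 TPM in mesendoderm and 10.7, 6.51 and 6.36 TPM in iPSCs, and did not pass (0.27 ± 0.42, adjusted p = 0.650). FOXA1 (-3.33 ± 0.30) and SHH (-3.47 ± 0.56), a signal of notochord and gut, fell. APOA1, an apolipoprotein of gut and liver, stood at 293, 342 and 353 TPM in mesendoderm and 1233, 977 and 1205 TPM in iPSCs (-1.53 ± 0.18). TTR and AFP, made by liver and visceral endoderm, were at 0 in all 6 libraries. Of 14 node and organiser genes 12 were tested, 6 rose and 4 fell (median 0.66), with the same counts without mesendoderm replicate 1. GSC, LHX1 and DKK1 were among those that rose and CHRD, SHH and FRZB among those that fell. The calls of CXCR4, SHH and APOA1 were lost in the fit over 21 libraries.

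Most epithelial genes fell. Of 23 genes, all tested, 18 fell and 2 rose (median -1.30), also without mesendoderm replicate 1, and 1 rose when any other library was left out. CDH1, the gene of E-cadherin, stood at 147, 72.8 and 66.6 TPM in mesendoderm and 746, 583 and 608 TPM in iPSCs (-2.57 ± 0.21, adjusted p = 7.11e-08). The tight junction gene CLDN4 stood at 14.3, 7.95 and 6.88 TPM in mesendoderm and 329, 352 and 306 TPM in iPSCs (-4.92 ± 0.18, adjusted p = 6.88e-12). Both were lower in every mesendoderm library than in any iPSC library. OCLN (-2.36 ± 0.15), the membrane protease ST14 (-2.19 ± 0.15) and GRHL2, an activator of epithelial genes (-2.95 ± 0.21), fell as well. EPCAM, at 395 to 461 TPM in mesendoderm against 615 to 667 TPM in iPSCs, did not pass (-0.36 ± 0.16, adjusted p = 0.0851), but was lower by upper quartile scaling (-0.48) and by limma on log2(TPM + 1) (-0.61). The keratin gene KRT18 was a member that rose, by 0.61 ± 0.17 (adjusted p = 0.00777), and its call was lost in the fit over 21 libraries.

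N-cadherin and early mesenchymal factors rose. CDH2, the gene of N-cadherin, stood at 513, 381 and 352 TPM in mesendoderm and 96.6, 70.7 and 88.4 TPM in iPSCs (2.51 ± 0.14, adjusted p = 7.14e-10), and CDH11 rose by 2.21 ± 0.15. SNAI1, the repressor of CDH1 in the streak, stood at 84.1, 57.5 and 43.1 TPM in mesendoderm and 3.37, 3.7 and 3.43 TPM in iPSCs (4.33 ± 0.23, adjusted p = 3.47e-10). The groups lay apart for these genes. TWIST1 (3.55 ± 0.26), ZEB2 (1.12 ± 0.19) and the fibronectin receptor subunit ITGA5 (2.84 ± 0.21) rose. The mesenchymal products VIM (0.19 ± 0.13, adjusted p = 0.2701) and FN1 (-0.59 ± 0.30, adjusted p = 0.138) did not pass, and the matrix gene SPARC fell by 1.94 ± 0.13. Of 21 genes 20 were tested, 11 rose and 1 fell (median 0.82). Without mesendoderm replicate 1, 11 rose and 4 fell, and without mesendoderm replicate 2, 2 fell. By limma on log2(TPM + 1) 9 rose and 4 fell. HAS2 was not analysed here. Among 24 adhesion and guidance genes 22 were tested, 6 rose and 9 fell (median -0.38), with 5 and 12 without mesendoderm replicate 1. EPHA4 (2.88 ± 0.24) and PCDH7 (2.80 ± 0.28) rose and EFNA5 fell (-1.73 ± 0.25). The calls of TWIST1 and SPARC were lost in the fit over 21 libraries.

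Markers of cell types that the cultures could also hold were read in the same way. Of 13 trophectoderm and amnion genes 11 were tested, 2 rose and 2 fell, as without mesendoderm replicate 1, and the 2 that rose, HAND1 and CDX2, are mesoderm genes as well. The 2 that fell were GABRP (-4.44 ± 0.22) and ELF3 (-4.25 ± 0.45), and GATA3 did not pass (0.63 ± 0.34, adjusted p = 0.152). The summed level of the list was 33.5 to 67.3 TPM in mesendoderm and 60.1 to 84.0 TPM in iPSCs. Of 18 fibroblast genes 15 were tested, 4 rose and 3 fell, with 4 and 4 without mesendoderm replicate 1, and 2 rose without mesendoderm replicate 3, iPSC replicate 1 or iPSC replicate 2. By limma on log2(TPM + 1) 2 rose and 4 fell. Their summed level was 90.6 to 177 TPM in mesendoderm and 187 to 372 TPM in iPSCs. COL1A2, a chain of type I collagen, stood at 16.3, 11.6 and 12.7 TPM in mesendoderm and 156, 80.5 and 96.0 TPM in iPSCs (-2.80 ± 0.21). Among the members that rose were COL6A3, by 3.46, and TWIST1, by 3.55. DCN, LUM and POSTN were at 2.16 TPM or less in all 6 libraries. LUM was nevertheless called higher (1.83), a call lost without mesendoderm replicate 3 or iPSC replicate 1, 2 or 3. The part of such cells, or of feeder RNA, in the results was not tested. The calls of COL1A2, COL6A3, TWIST1 and LUM were lost in the fit over 21 libraries.

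The share of cell cycle genes that passed was close to that of all genes. MKI67, at 74.7, 20.3 and 19.3 TPM in mesendoderm and 76.3, 58.6 and 69.99 TPM in iPSCs, did not pass (-0.70 ± 0.42, adjusted p = 0.214), and mesendoderm replicate 1 lay far above the other libraries of its group. CCNB1 (-0.01 ± 0.14) and PCNA (0.23 ± 0.17) did not pass either. CCNE2, a cyclin of entry into S phase, rose by 1.75 ± 0.30 and the inhibitor CDKN1A fell by 0.76 ± 0.20. Of 24 cell cycle genes 7 rose and 2 fell (median 0.11). The balance turned with the scaling, to 4 and 4 with upper quartile scaling and to 2 higher and 6 lower by limma on log2(TPM + 1). Without mesendoderm replicate 1, 9 rose and 5 fell, and with another library left out (mesendoderm replicate 2 or iPSC replicate 1, 2 or 3) 3 or 4 rose. Without mesendoderm replicate 2 or iPSC replicate 2, 1 fell. Among p53 targets 3 rose and 4 fell of 13 tested out of 15, with 3 and 5 without mesendoderm replicate 1 and 1 and 7 by limma on log2(TPM + 1). PMAIP1 (NOXA) fell by 1.65 ± 0.18, CCNG1 rose by 1.13 ± 0.19 and MDM2 did not pass (-0.26 ± 0.15). The calls of CDKN1A and CCNG1 were lost in the fit over 21 libraries.

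Of the metabolic lists, that of cholesterol synthesis and uptake was mostly higher. Of 20 genes 17 were tested, 13 rose and the other 4 did not pass, with a median of 0.9998. Without mesendoderm replicate 1, 13 rose and 2 fell. Their summed level was 2285 to 2330 TPM in mesendoderm and 1247 to 1376 TPM in iPSCs. HMGCS1, the enzyme that commits acetyl units to the pathway, stood at 435, 551 and 533 TPM in mesendoderm and 235, 221 and 230 TPM in iPSCs (1.40 ± 0.16, adjusted p = 3.60e-06). FDPS, the farnesyl diphosphate synthase, stood at 482, 493 and 500 TPM in mesendoderm and 233, 221 and 225 TPM in iPSCs (1.38 ± 0.14, adjusted p = 7.69e-07). MSMO1, a later sterol oxidase, rose by 1.52 ± 0.21. The levels of these enzymes lay apart in the 2 groups. SREBF2, the transcription factor of the pathway, did not pass (-0.57 ± 0.26, adjusted p = 0.0966), nor did DHCR7 (0.05 ± 0.19), which catalyses a last step. IDI1 and CYP51A1 were not analysed here. Of 21 glycolysis genes 10 rose and 3 fell (median 0.42), the same without mesendoderm replicate 1, while 1 fell without mesendoderm replicate 2, iPSC replicate 1 or iPSC replicate 2. ENO1 (1.202 ± 0.13), the hexokinase HK2 (1.59 ± 0.26), the lactate dehydrogenase LDHA (1.73 ± 0.23) and the glucose transporter SLC2A3 (1.12 ± 0.13) rose, PFKM fell (-0.61 ± 0.13), and PKM (0.14 ± 0.13) and SLC2A1 (-0.20 ± 0.28) did not pass. Retinoid genes were mixed, with 5 higher and 3 lower of 15 tested out of 18, and 4 and 4 without mesendoderm replicate 1. DHRS3, a reductase that lowers retinoic acid, stood at 0.11, 0.12 and 0.32 TPM in mesendoderm and 5.21, 5.76 and 6.55 TPM in iPSCs (-4.63 ± 0.44). The calls of HK2 and LDHA were lost in the fit over 21 libraries.

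The genes with the most extreme changes, ranked among 2828 called genes whose groups did not overlap and whose higher mean was 10 TPM or more, were partly outside these lists. The ranks used fitted changes, so those of genes at 0 in a group (MSGN1, VGLL1 and CD1D) are uncertain, and the bounds of MSGN1 and CD1D lie nearer to 0 than the change of the last gene in their list. The 10 highest were MIXL1, KLHL6, MSGN1, DKK4, HAND1, HCRTR2, SYT10, HRK, EVX1 and BHLHE40. KLHL6, a Kelch-like adaptor known from B cells, stood at 35.8, 38.0 and 31.0 TPM in mesendoderm and 0.14, 0.01 and 0.04 TPM in iPSCs (9.15 ± 0.44, adjusted p = 1.09e-10). It had 5 counts in all in iPSCs, so the size of its change is uncertain, at 5.08 to 10.59 in 16 alternative fits. For KLHL6 no other library of the series exceeded 6.19 TPM. HCRTR2, an orexin receptor, stood at 39.2, 47.3 and 37.8 TPM in mesendoderm and 0.44, 0.9 and 0.15 TPM in iPSCs (6.55 ± 0.35). SYT10, a synaptotagmin, stood at 12.2, 12.7 and 11.5 TPM in mesendoderm and 0.05, 0.21 and 0.24 TPM in iPSCs (6.41 ± 0.39). Each of these was even among the mesendoderm libraries. HRK, a pro-apoptotic BH3 gene, rose by 6.32 ± 0.55, and BHLHE40, a repressor tied to hypoxia and the clock, by 6.07 ± 0.43. The 10 lowest were VGLL1, CD1D, THSD1, FOXD3, DGKB, GRPR, PRDM14, HESX1, SOX2 and TJP3. VGLL1, a TEAD co-factor, was at 0 in every mesendoderm library and at 19.2, 13.0 and 11.7 TPM in iPSCs, a log2 change of -6.66 or lower against a floor of 3 counts over the group. CD1D, a lipid-presenting molecule, was at 0 likewise, against 8.07, 10.5 and 12.1 TPM in iPSCs (-5.97 or lower). GRPR, a bombesin receptor, stood at 0.72, 0 and 0 TPM in mesendoderm and 44.9, 33.3 and 33.0 TPM in iPSCs (-6.91 ± 0.66). TJP3, a tight junction scaffold, fell by 5.99 ± 0.40.

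The later libraries of the course show how long these levels lasted, as a description without a test. Mean T was 10.3, 307, 63.4 and 1.95 TPM on days 0, 1, 2 and 3, and mean EOMES was 11.3, 355, 7.98 and 0.437 TPM. CER1 (48.7, 193, 0.1 and 1.01 TPM), DKK1 (15.1, 824, 146 and 2.61 TPM) and FGF17 (3.07, 69.7, 5.59 and 3.91 TPM) were also highest on day 1, and on day 2 T, DKK1 and FGF17 still had means above those of day 0. MSGN1 and TBX6, low on day 1, were at 91.1 and 50.6 TPM on day 2. Mean POU5F1 was 717, 616, 136 and 15.3 TPM, so that its level was lower from day 2, whereas SOX2 was at 174, 2.37, 2.88 and 9.30 TPM. Some day 1 changes were not kept. CLDN4 was at 329, 9.69, 176 and 1079 TPM, CDH1 at 646, 95.4, 65.4 and 600 TPM, FOXA1 at 5.73, 0.48, 3.95 and 36.4 TPM, and DUSP6 at 195, 45.1, 365 and 0.877 TPM on days 0, 1, 2 and 3.

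**Figure D5:**
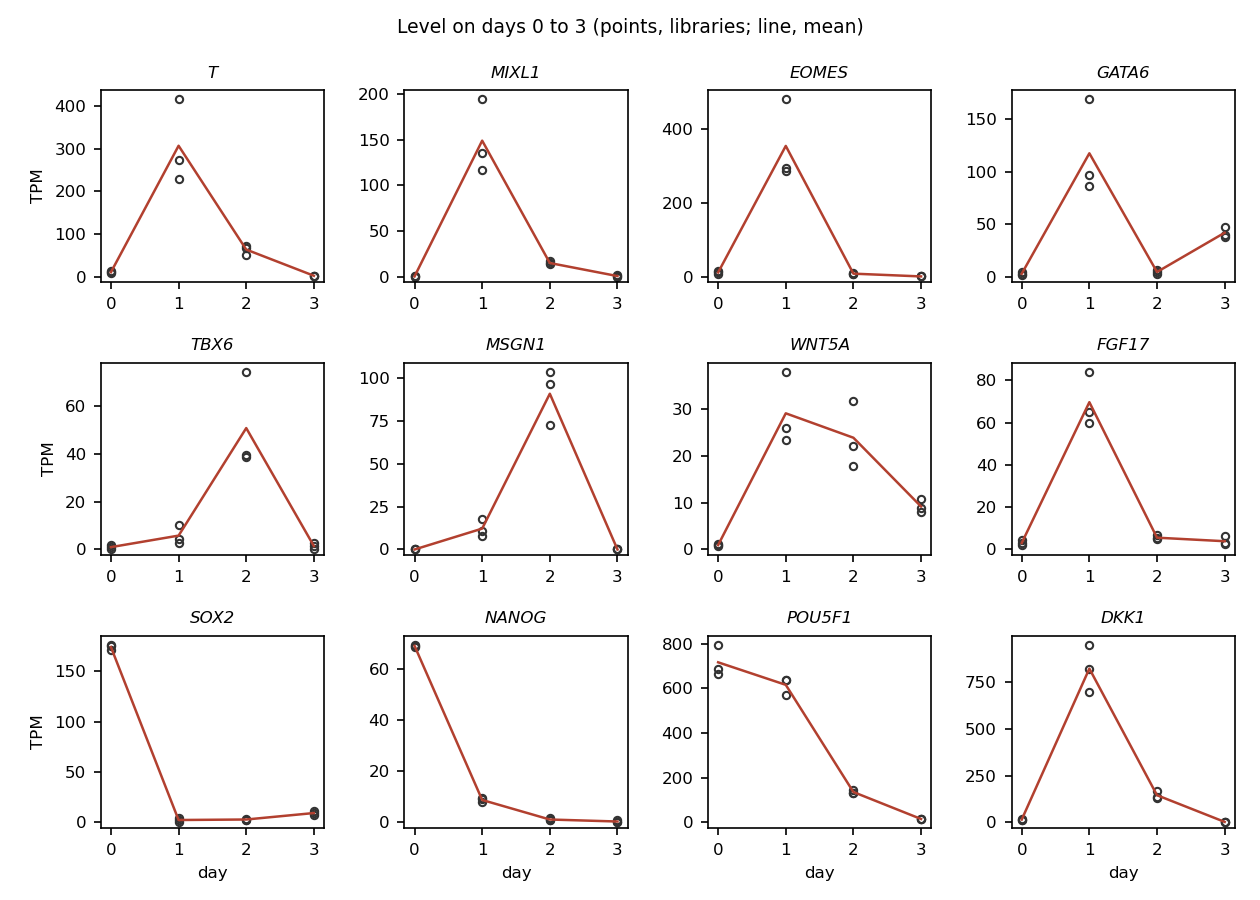
TPM (vertical axis, linear, one scale per gene) of 12 genes on days 0, 1, 2 and 3 (horizontal axis). Points are libraries and the line joins the means of 3 libraries a day. T, MIXL1, EOMES, FGF17 and DKK1 are high on day 1, TBX6 and MSGN1 on day 2, SOX2 is low from day 1 and POU5F1 from day 2.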

How the data were processed

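RNA-seq libraries of pig iPSC clone 8 were made from total RNA by a ligation-mediated protocol, per the labels' protocols. Reads were aligned with Bowtie 1.2.3 and quantified with RSEM 1.2.3 on Sscrofa11.1, per the submitters' processing notes, which do not say if counting used strand, so that overlapping or antisense genes, and near-identical copies, are uncertain. The authors deposited a table of RSEM estimated counts and a table of TPM per gene. Estimated counts were rounded to whole numbers, a mean change of 0.00661%. Genes were kept by filterByExpr (minimum count 10), scaled by TMM and tested with edgeR 4.0.16 (quasi-likelihood, robust, R 4.3.3) on the 12 libraries of days 0 to 3, with Benjamini-Hochberg adjustment over 13059 genes. The SE is the log2 fold change divided by the square root of F. Alternatives used DESeq2 1.42.0, limma 3.58.1 and other scalings, filters, libraries and left-out replicates. A length offset was chosen after seeing the data. TPM is shown as deposited, and no interval covers more than counting error. Total counts were 6725864 to 8115007 in mesendoderm and 8152284 to 8604970 in iPSC libraries. Coordinates are RefSeq's for 20618 of 20683 genes matched by symbol.

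The members and the 28 gene lists were chosen with earlier results of these data known. Named genes are up to 5 per list in the commoner direction and 3 in the other by size of change, the 10 highest and 10 lowest genes of the ranking, and further list members by level or change. From these the text leaves out genes whose call is lost when 1 library is left out, except ACVR2B, LFNG and LUM. This restriction was made after their values were seen.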

Additional observations from a re-analysis of the deposited data

How the results depend on the processing

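The count of called genes was 5186, against 4723 in the 6 libraries of the 2 days alone, 5412 by DESeq2, 5188 with RLE scaling, 5059 with no filter on low counts and 5722 with the length offset (3128 higher, 2594 lower), a setting chosen after seeing the data. It was 1801 (784 higher, 1017 lower) in a fit over all 21 clone 8 libraries and 1340 (386 higher, 954 lower) with a minimum fold change of 2. In the fit over 21 libraries 5 Nodal genes rose, 5 BMP genes, 3 presomitic genes, 3 endoderm genes, 4 glycolysis genes and 8 cholesterol genes, 12 epithelial genes fell, and no fibroblast gene was called either way. In the 6 libraries alone 1 of the HOX and CDX genes rose, and CDX1 and CDX2 did not pass the count filter and were not tested. By limma 1387 genes were higher on log2(TPM + 1) and 1360 on log2(TPM + 0.1). Leaving out each library in turn gave 3934 to 6445 called genes, 1814 to 3205 higher and 2110 to 3240 lower. Of 432 called genes that were followed, 180 kept their call in each of the 16 alternatives in which they were tested. The minimum fold change was not among these 16. The other 252 lost their call in at least 1, and 0 changed direction. Some genes, such as CDX1 and IL6, were tested in only 15. Genes that had not passed did change sign. POU5F1 was at -0.10 with upper quartile scaling, -0.22 and -0.22 by limma with the 2 pseudocounts, -0.077 with the length offset and -0.035 to 0.12 with a library left out. FOXA2 was at -0.034 and -0.05 by limma and at -0.24 to 0.53 with a library left out, OTX2 at -0.070 and -0.070 and VIM at -0.060 and -0.061 by limma. The causes were not tested.

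Whether replicate numbers pair the libraries was not settled. The deviations of libraries of the same number correlated at 0.28, 0.13 and 0.09, and those of different numbers at -0.20 to 0.12. Mesendoderm replicate 3 went best with iPSC replicate 2 (0.12). With 3 libraries in each group these correlations cannot decide on pairing, and the main fit did not use it. With the replicate number as a block 6259 genes were called (3159 higher, 3100 lower), 5168 of them shared with the unblocked fit. SALL4 was then called higher (0.41). Motifs in promoters were not run, since no promoter sequences were used here. Depth limits genes at 0 in a group to bounds.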

Other observations

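Gene families picked by symbol after the values were seen give further descriptions, without a test of the family. Their counts are to be read beside the shares of all genes, 19.8% higher and 19.9% lower. Of 9 claudin genes, which form tight junctions, 7 fell (median log2 fold change -3.16, against 0.01 over all genes). CLDN10 stood at 2.88, 1.42 and 0.98 TPM in mesendoderm and 96.4, 105.6 and 96.4 TPM in iPSCs, without overlap (-5.58 ± 0.29, adjusted p = 2.50e-10 by edgeR). All 5 GRHL and OVOL genes, regulators of epithelia, fell (median -2.95), among them GRHL3 (-3.55 ± 0.36). Of 9 keratin genes 6 fell and 2 rose, and 1 rose when any library other than mesendoderm replicate 1 was left out. Their summed level did not fall, at 6349 to 6825 TPM in mesendoderm and 5964 to 6230 TPM in iPSCs. KRT6A stood at 0.48, 0 and 0.3 TPM in mesendoderm and 14.5, 15.4 and 13.3 TPM in iPSCs. Of 21 integrin genes 7 fell and 4 rose, and 2 rose when mesendoderm replicate 2 or 3 or iPSC replicate 2 or 3 was left out. ITGA6 (-2.99 ± 0.15) and ITGA3 (-3.82 ± 0.23), subunits of laminin receptors, fell, whereas ITGB5 rose (1.42 ± 0.16).

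Of 77 ribosomal protein genes 36 rose, with a median of 0.43. The number that rose was 64 without mesendoderm replicate 1 and 13 to 26 with any other library left out. It was 18 with upper quartile scaling and 4 in the fit over 21 libraries. With the length offset 37 rose and the median was 0.29. By limma on log2(TPM + 1) 19 rose and the median was 0.17. The median length of this family lay among the shortest genes, of which 575 rose and 340 fell (median 0.15). Other families of short genes went either way. Of 76 mitochondrial ribosomal protein genes 22 rose (median 0.35) and of 46 NDUF genes 14 rose (0.31), and 0 fell in both. Of 9 claudin genes 7 fell, of 8 S100 genes 5 and of 11 cytokine genes 7. The part of gene length in these changes was not tested further.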
